A study of Mus musculus with 9 samples.

Results

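The 10 genes described here encode the glycoprotein GPNMB, the galectins Lgals1, Lgals3 and Lgals9, and 6 further genes that mark lipid-laden macrophages: Spp1, Trem2, Apoe, Fabp5, Cd9 and Cd63. They were picked by symbol from the 53715 gene IDs of the table, and all 10 were found. Their levels at both glycine concentrations were known when they were picked, so the differences between the concentrations are given as a description, without a test. RNA was measured by sequencing in primary myoblasts at passage 1, which are muscle precursor cells in culture. All cells came from the mdx mouse strain, labelled C57BL/10ScSn-Dmdmdx/J, which carries a mutated dystrophin gene. Glycine was supplied at 0.2 mM in 3 libraries and at 0.8 mM in 6. Neither the number of animals nor whether libraries came from separate cultures is given in the labels, so the spread between libraries may be technical. Library names fall into 2 numbered sets, 1 per concentration, and any batch tied to those sets cannot be told apart from glycine. Values are TPM, which are scaled for gene length and so can be compared between genes, and ± denotes the SD over libraries.

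Galectins are small proteins that bind beta-galactosides on cell-surface and secreted glycans. GPNMB is a membrane glycoprotein of lysosomes and the cell surface that is induced under lysosomal stress and in phagocytes. In injured and dystrophic muscle, macrophages that take up debris and lipid express Gpnmb, Lgals3, Spp1, Trem2, Apoe, Fabp5, Cd9 and Cd63 together, but galectins, osteopontin and tetraspanins are also made by muscle precursors and fibroblasts. The cultures held RNA of several cell types. Summed over 8 myoblast markers, the level ran from 410 to 479 TPM at 0.2 mM and from 906 to 1125 TPM at 0.8 mM, with Myog at 247 ± 16.9 and 523 ± 41.2 TPM and Des at 104 ± 12.8 and 356 ± 30.5 TPM. Summed over 25 macrophage and monocyte markers, it ran from 2445 to 2666 TPM and from 2407 to 2909 TPM, so the groups overlapped. Fcer1g and Lyz2 held most of that sum; without them, an exclusion made after their values were seen, it ran from 963 to 1081 TPM at 0.2 mM and from 702 to 817 TPM at 0.8 mM, lower without overlap. That drop lay mostly in Ctss, at 387 and 222 TPM, and Cd68, at 182 and 57.6 TPM. Tyrobp, at 181 and 241 TPM, went the other way. Of the 20 markers tested at a limma adjusted p under 0.05, 4 rose and 5 fell. Across all tested genes, 16.7% rose and 9.81% fell. In such bulk samples fewer cells of a type and less RNA per cell cannot be told apart.

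The promoter stretches below are shown because they hold the matches to motifs of factors linked to these genes. These are a loose AP-1-type pattern, TGANTCA with any base at N, and the M-box motif TCACATG that MITF-type factors bind. At N the Gpnmb match has C and the Trem2 match has A. RefSeq promoter windows on GRCm38.p6, from 250 bases before to 50 bases after a start site, were at hand for 8 of the 10 genes and not for Lgals1 and Fabp5. Capitals mark the match, positions count from the start site as 1, and the Lgals9 match is the reverse complement of the motif.
Gpnmb: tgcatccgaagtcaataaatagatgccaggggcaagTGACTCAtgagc
Trem2: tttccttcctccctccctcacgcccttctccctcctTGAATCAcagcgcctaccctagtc
Lgals9: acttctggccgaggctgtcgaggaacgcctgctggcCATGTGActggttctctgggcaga
The Gpnmb stretch lies on the plus strand at chr6:49036490-49036537, with the match from position 9 to 15. The Trem2 stretch lies on the plus strand at chr17:48346356-48346415, with the match from -9 to -3. The Lgals9 stretch lies on the minus strand at chr11:78985083-78985142, with the match from -182 to -176. Searched on both strands, TGANTCA was found in the windows of 8.97% of the 27025 genes with a promoter entry and TCACATG in 4.50%. The E-box CACGTG, its longer form TCACGTG and the ATF4-type motif TTGCATC, present in 8.09%, 4.29% and 2.89% of genes, were found in 0 of the 8. The TATAAA motif, in 15.7% of genes, was found for Spp1 and Apoe. TCACGTG contains CACGTG, so their matches overlap.

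Gpnmb (ENSMUSG00000029816.10, GRCm38 chromosome 6, 49036546 to 49070929) had the largest log2 fold change in size of the 10. Its level was 169, 166 and 173 TPM in the 3 libraries at 0.2 mM, and ran from 32.2 over a median of 37.2 to 39.9 TPM in the 6 at 0.8 mM. The libraries at 0.8 mM were all far below those at 0.2 mM, and within each concentration they lay close together. The means were 169 ± 3.32 and 36.6 ± 2.68 TPM, a log2 fold change of -2.18 ± 0.07 (SE, on log2(TPM + 1), 0.8 minus 0.2 mM). Among the 10049 genes tested, 0.159% had a lower fold change.

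Lgals3, on chromosome 14 (47367751 to 47386160), encodes galectin-3, the chimera-type galectin that macrophages secrete and that marks damaged lysosomes. It stood at 847, 865 and 886 TPM at 0.2 mM and ran from 292 over a median of 324 to 351 TPM at 0.8 mM. Every library at 0.8 mM was lower than every library at 0.2 mM, with means of 866 ± 19.5 and 324 ± 19.9 TPM and a log2 fold change of -1.42 ± 0.06 (SE).

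Lgals1, on chromosome 15 (78926725 to 78930465), encodes galectin-1, a dimer of single-domain subunits that is abundant in muscle precursors and fibroblasts. Its direction was opposite to that of Lgals3. It stood at 2257, 2459 and 2186 TPM at 0.2 mM and ran from 3980 over a median of 4179 to 4331 TPM at 0.8 mM, with no overlap. The means were 2300 ± 142 and 4178 ± 119 TPM, a log2 fold change of 0.86 ± 0.04 (SE), and its mean level over all libraries was the 45th highest of the tested genes. Its annotated processed pseudogenes Lgals1-ps1 and Lgals1-ps2 were listed at 0 TPM in every library.

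Lgals9, on chromosome 11 (78962974 to 78984946), encodes galectin-9, a tandem-repeat galectin that acts on T cells and myeloid cells. It was far less abundant, at 24.5, 22.3 and 24.8 TPM at 0.2 mM and from 26.5 over a median of 29.1 to 31.6 TPM at 0.8 mM. The libraries at 0.8 mM were slightly higher, without overlap, and the log2 fold change of 0.28 ± 0.08 (SE) was 0.18 with quantile normalization. The balance of the galectins differed between the groups as well, which follows from the opposite directions of Lgals1 and Lgals3. Lgals1 exceeded Lgals3 by 2.66 ± 0.187 fold at 0.2 mM, where the libraries ran from 2.47 to 2.84, and by 12.9 ± 0.642 fold at 0.8 mM, where they ran from 11.9 to 13.6. Lgals3 made up 27.2 ± 1.38% of the summed TPM of the 3 galectins at 0.2 mM and 7.16 ± 0.336% at 0.8 mM, while that sum itself was 3190 ± 136 and 4532 ± 133 TPM.

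**Figure D1:**
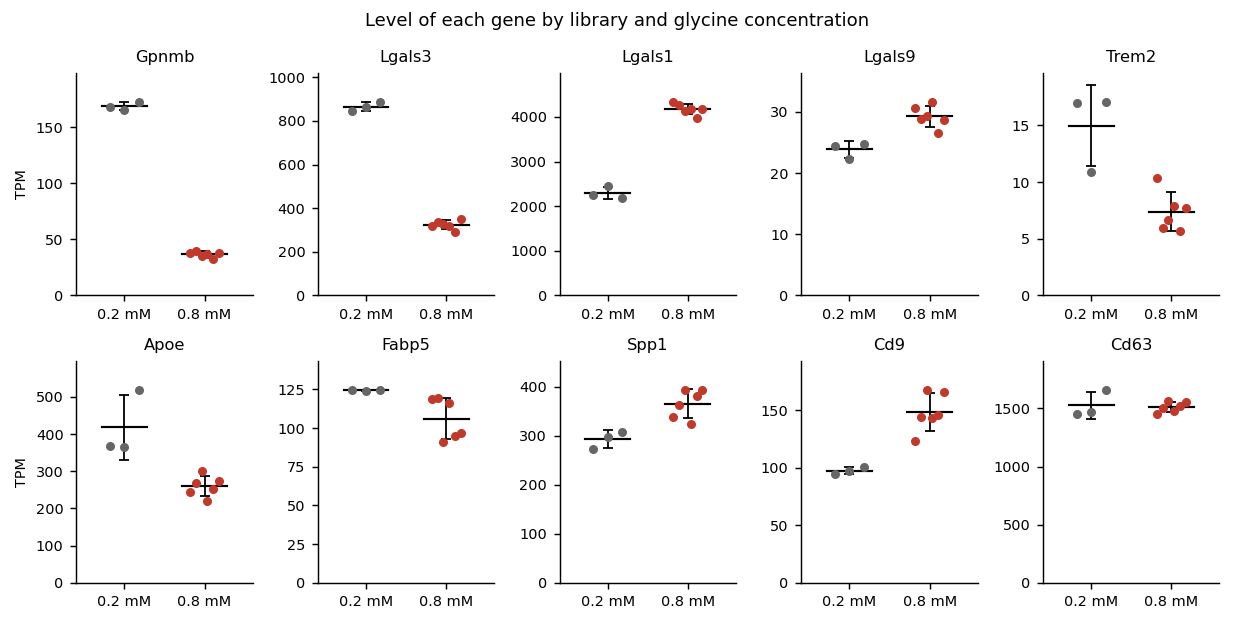
TPM of each of the 10 genes (vertical axes, starting at 0) as 1 point per library, grey for the 3 at 0.2 mM and red for the 6 at 0.8 mM glycine, black bars giving mean and SD. Gpnmb and Lgals3 are lower in all 6 libraries at 0.8 mM, Lgals1 is higher in all 6, and the libraries of Cd63 overlap.

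Trem2, on chromosome 17 (48346401 to 48354147), encodes a lipid-sensing receptor of macrophages that signals through the adaptor TYROBP. Its level was low and variable, at 17.0, 10.9 and 17.0 TPM at 0.2 mM and from 5.65 over a median of 7.21 to 10.4 TPM at 0.8 mM. The groups did not overlap, but the highest library at 0.8 mM, replicate 1, came close to replicate 2 at 0.2 mM. The means were 15.0 ± 3.56 and 7.38 ± 1.72 TPM and the log2 fold change was -0.93 ± 0.19 (SE). With 1 library left out at a time it ran from -1.13 without 0.2 mM replicate 2 to -0.83 without 0.2 mM replicate 1 or 3.

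Apoe, on chromosome 7 (19696109 to 19699188), encodes the apolipoprotein that carries lipid out of macrophages and is a ligand of TREM2. It stood at 367, 366 and 520 TPM at 0.2 mM and ran from 221 over a median of 261 to 302 TPM at 0.8 mM. The groups did not overlap, and replicate 3 stood above the other libraries at 0.2 mM. The log2 fold change was -0.67 ± 0.12 (SE), and -0.50 without that library.

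Fabp5, on chromosome 3 (10012548 to 10016607), encodes a fatty acid-binding protein that shuttles lipid in the cytosol. Its 3 libraries at 0.2 mM were almost equal, at 125, 124 and 124 TPM, while those at 0.8 mM ran from 90.7 over a median of 107 to 120 TPM. All 6 lay below the 3, some of them by little, and the log2 fold change was -0.24 ± 0.10 (SE), or -0.37 with quantile normalization. The pseudogene Fabp5l2 was listed at 0 TPM throughout.

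Spp1, on chromosome 5 (104435118 to 104441050), encodes osteopontin, a secreted ligand of integrins and CD44. It stood at 272, 298 and 308 TPM at 0.2 mM and ran from 324 over a median of 372 to 395 TPM at 0.8 mM. The libraries at 0.8 mM were higher without overlap, with a log2 fold change of 0.32 ± 0.07 (SE). That value was 0.08 with quantile normalization. The exons of Spp1 overlap the same-strand annotated gene Gm42793, which is not among the symbols with TPM.

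The tetraspanins Cd9 and Cd63, membrane organisers that are also carried on exosomes, differed from each other. Cd9, on chromosome 6 (125460266 to 125494791), stood at 94.5, 96.9 and 101 TPM at 0.2 mM and ran from 124 over a median of 145 to 168 TPM at 0.8 mM. It was higher in every library at 0.8 mM, by 0.60 ± 0.09 (SE) on the log2 scale. Its exons overlap the antisense gene Gm26728, which is not among the symbols with TPM, and the use of strand is not given. Cd63, a marker of lysosomes and late endosomes on chromosome 10 (128900989 to 128912822), stood at 1454, 1466 and 1663 TPM at 0.2 mM and ran from 1451 over a median of 1513 to 1560 TPM at 0.8 mM. Its groups overlapped, and its log2 fold change of -0.01 ± 0.05 (SE) ran from -0.13 with quantile normalization to 0.05 without 0.2 mM replicate 3.

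The order of the levels changed in the middle of the 10. At 0.2 mM it ran Lgals1, Cd63, Lgals3, Apoe, Spp1, Gpnmb, Fabp5, Cd9, Lgals9 and Trem2, and no neighbours overlapped between their libraries. At 0.8 mM it ran Lgals1, Cd63, Spp1, Lgals3, Apoe, Cd9, Fabp5, Gpnmb, Lgals9 and Trem2, where the values of Spp1 overlapped those of Lgals3, and those of Lgals3 overlapped those of Apoe. Gpnmb moved from the sixth place to the eighth. The 10 genes together held 0.583 ± 0.0191% of all TPM at 0.2 mM and 0.697 ± 0.0142% at 0.8 mM, and Lgals1 was the largest contributor in both groups.

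In direction, 4 of the 10 were higher at 0.8 mM and 6 were lower, with a median log2 fold change of -0.12 beside 0.06 for all tested genes. Across the table, 26.6% of the 10049 genes passed at a limma adjusted p under 0.05, with 16.7% that rose and 9.81% that fell from 0.2 to 0.8 mM, and 28.2% had groups without overlap. Of the 10, 8 passed that threshold and 9 had no overlap, but the genes were picked with this comparison known, so these counts are given only as a description. All 10 passed the filter on low values in both groups.

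**Figure D2:**
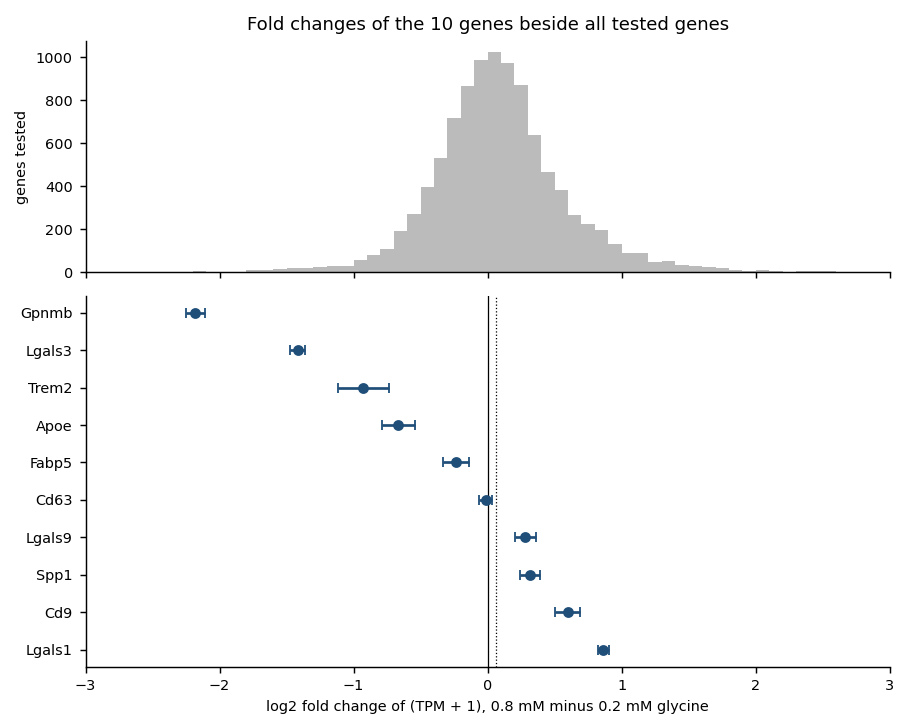
The upper panel counts the 10049 tested genes by log2 fold change of (TPM + 1), 0.8 minus 0.2 mM, in a window of 3 either way that leaves out 12 genes; the lower panel gives the 10 genes with SE bars, a solid line at 0 and a dotted line at the median of all tested genes, 0.06. Gpnmb at -2.18 and Lgals3 at -1.42 lie in the left tail, and Lgals1 at 0.86 is the highest of the 10.

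By likeness of pattern, measured as Pearson r of log2(TPM + 1) over the 9 libraries among 4225 genes with a mean of at least 5 TPM and a unique symbol, predicted genes and pseudogenes by name left out, the genes nearest to Gpnmb were Ftl1, Sqstm1 and Lgals3, with r from 0.998 to 0.999. Ftl1 encodes the ferritin light chain, at 9222 ± 72.1 and 4679 ± 162 TPM, and Sqstm1 the autophagy receptor p62, at 309 ± 2.42 and 88.7 ± 5.66 TPM. The libraries form 2 separate groups, so this r mostly follows the step between the concentrations. After subtraction of each group's mean, the nearest were Iah1, Hspb2 and Igsf8 (r from 0.931 to 0.937), and Lgals3 came at rank 79 with r = 0.78 while Apoe and Cd63 had r = 0.10 and -0.06. These are descriptions over 9 libraries, and Iah1, Hspb2, Igsf8, Sqstm1 and Ftl1 each share exonic positions with another annotated gene.

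The lists below hold other genes of the same pathways, none of them among the 10. Of all tested genes, 16.7% rose and 9.81% fell, at a median log2 fold change of 0.06. Counts in short lists that lie near these shares are not a trait of the list. Exons of Lgals8, Ctsb, Pltp, Fabp3, Cd81, Tspan4, Sdcbp, Igsf8, Itga7 and Rragc overlap a gene on the other strand, so their reads may be shared if strand was not used. The same holds for the cell type markers Csf1r, Des and Mcam. Of the list genes called, 3 of the 18 that rose and 1 of the 27 that fell were under 1 TPM in every library of the lower group, so they entered the test only through the group where they were high, and their calls are not independent of the filter. The galectin family list added little, since 2 of its 7 genes were measured well enough to test. Lgals8, another tandem-repeat galectin, fell from 10.1 ± 1.65 to 6.24 ± 0.711 TPM (limma adjusted p = 0.00401), while no change passed for Lgals3bp, the galectin-3-binding protein gene, at 118 ± 17.6 and 116 ± 9.70 TPM. Lgals2, Lgals7 and Lgals12 were listed at 0 in every library.

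Other genes of the lipid-associated macrophage programme mostly lay on the lower side at 0.8 mM. Of 21 tested, 11 fell, 3 rose and 7 missed the threshold, at a median log2 fold change of -0.65. Plin2, a lipid droplet coat protein, fell from 250 ± 20.4 to 35.7 ± 2.80 TPM (limma adjusted p = 6.42e-09). Cd68, a lysosomal membrane protein of macrophages, fell from 182 ± 13.6 to 57.6 ± 2.38 TPM, and every library at 0.8 mM was lower. The lysosomal proteases Ctsb and Ctss fell, with log2 fold changes of -1.02 and -0.80. Against these, the genes that rose were Fabp4, Tyrobp and Lyz2, of which Tyrobp and Lyz2 also belong to the macrophage markers, and Fabp4 to the list of fatty acid-binding proteins. Lyz2, the lysozyme gene of myeloid cells, rose from 588 ± 30.6 to 1013 ± 153 TPM (limma adjusted p = 0.000457), and Fabp4, a relative of Fabp5, from 13.7 ± 0.901 to 29.4 ± 4.36 TPM.

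The receptor Trem2 and its adaptor lay in opposite directions. Tyrobp, which carries the signal of TREM2 and of other myeloid receptors, rose from 181 ± 19.8 to 241 ± 17.0 TPM (limma adjusted p = 0.00264, and 0.0906 with quantile normalization). For each 100 TPM of Tyrobp there were 8.21 ± 1.44 TPM of Trem2 at 0.2 mM, with libraries from 6.67 to 9.52, and 3.06 ± 0.693 at 0.8 mM, with libraries from 2.22 to 4.10. Gpnmb set against Tyrobp in the same way was 93.9 ± 8.31 and 15.2 ± 1.00. Neither ratio overlapped between the groups. That was bound to hold, since Trem2 and Gpnmb were lower and Tyrobp higher at 0.8 mM, each without overlap. Tyrobp was 1 of the 4 macrophage markers, out of 20 tested, that rose, so dividing by it enlarges both falls. Cd68 fell by more than Trem2 (log2 fold change -1.64 against -0.93), so Trem2 relative to Cd68 was higher at 0.8 mM. Gpnmb, at -2.18, fell by more than Cd68. In TREM2 signalling and shedding, 9 genes were tested: 2 rose, 2 fell and 5 missed the threshold, at a median log2 fold change of 0.25. Grb2, an adaptor used in many cell types, rose from 6.64 ± 1.78 to 15.1 ± 4.50 TPM, while the kinase gene Syk and the exchange factor gene Vav1 of blood cells fell, Syk from 4.65 ± 0.364 to 2.74 ± 0.301 TPM and Vav1 from 3.33 ± 0.279 to 1.59 ± 0.259 TPM.

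**Figure D3:**
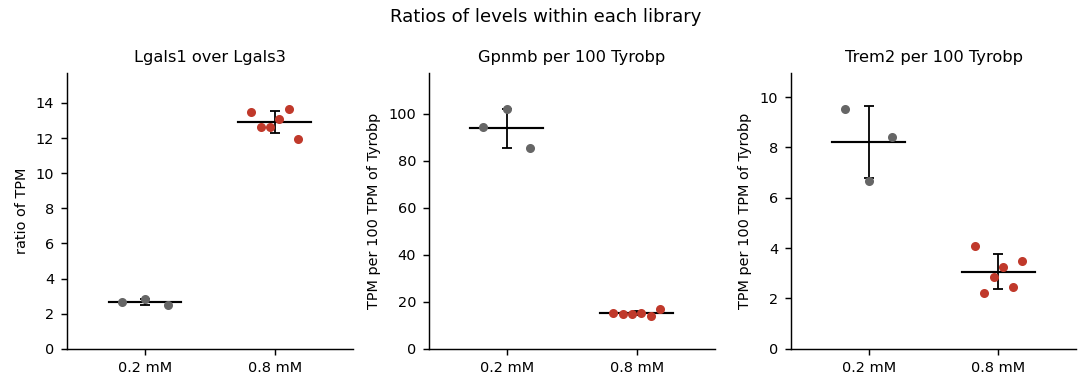
Ratios of TPM computed within a library, with grey points for the 3 libraries at 0.2 mM, red points for the 6 at 0.8 mM glycine, mean and SD in black and axes from 0. Lgals1 over Lgals3 averages 2.66 and 12.9, Gpnmb per 100 TPM of Tyrobp 93.9 and 15.2, and Trem2 per 100 TPM of Tyrobp 8.21 and 3.06, without overlap in any panel. Tyrobp itself rose from 181 to 241 TPM. In each panel both genes differed without overlap and in opposite directions, so their ratios had to separate.

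Receptors of osteopontin and GPNMB showed 4 rises and 1 fall among 8 tested, the other 3 missing the threshold, and a median log2 fold change of 0.29. Itgb3, the integrin subunit that pairs with alpha-v to bind osteopontin, rose from 0.639 ± 0.0868 to 2.26 ± 0.154 TPM (limma adjusted p = 0.000103), but met the filter only through the libraries at 0.8 mM. Itgb1 rose from 28.6 ± 2.61 to 36.2 ± 2.23 TPM and Itgb5 from 8.01 ± 1.93 to 13.3 ± 2.27 TPM, whereas Cd44, which binds osteopontin and hyaluronan, fell from 21.7 ± 1.98 to 17.1 ± 0.710 TPM. Leaving out 0.2 mM replicate 1 ended the calls of Itgb5 and Cd44 (limma adjusted p = 0.0598 and 0.0747), and leaving out 0.2 mM replicate 3 that of Itgb1 (0.0551). With quantile normalization 2 of the list rose.

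For APOE receptors, lipidation and the LXR axis, 1 of 12 tested genes rose, 3 fell and 8 missed the threshold, at a median log2 fold change of -0.08. Those that fell were Pltp, the phospholipid transfer protein, from 9.12 ± 0.984 to 4.49 ± 1.17 TPM (limma adjusted p = 0.00333), and the cholesterol exporters Abca1 and Abcg1, with log2 fold changes of -0.50 and -0.38. The call of Abca1 was lost without any of the 3 libraries at 0.2 mM (limma adjusted p up to 0.0694) and that of Abcg1 when any 1 of 8 libraries was dropped (up to 0.141); 2 genes rose without 0.2 mM replicate 3 or 0.8 mM replicate 5.

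Relatives of Fabp5 were mixed. Of 6 tested genes of fatty acid-binding proteins, retinoid-binding relatives and PPARs, 4 rose, 1 fell and 1 missed the threshold, with a median log2 fold change of 1.47. Fabp3, the heart and muscle form, fell from 62.2 ± 5.64 to 15.6 ± 2.41 TPM (limma adjusted p = 8.30e-07). Fabp7, the brain form, rose from 3.57 ± 0.884 to 19.0 ± 1.93 TPM, and Crabp1, a retinoic acid-binding relative, rose from 1.26 ± 0.256 to 12.4 ± 3.06 TPM.

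Among 20 other tetraspanins tested, 4 rose, 3 fell and 13 missed the threshold, with a median log2 fold change of 0.31. Beside them, 16.7% of all tested genes rose and 9.81% fell. Cd81, the close partner of CD9, rose from 115 ± 9.99 to 220 ± 9.60 TPM (limma adjusted p = 1.63e-06), and Tspan6 from 11.9 ± 0.272 to 18.7 ± 1.23 TPM. Cd53, a tetraspanin of leukocytes, fell from 70.8 ± 2.93 to 24.3 ± 1.96 TPM, and Tspan4, which builds migrasomes, from 98.6 ± 10.2 to 60.7 ± 5.50 TPM. Of 10 tested tetraspanin partners and exosome genes, 2 rose, 2 fell and 6 missed the threshold, with a median of 0.03. Timp1, a metalloproteinase inhibitor that binds CD63, rose from 4895 ± 601 to 7780 ± 897 TPM, and Sdcbp, syntenin of the exosome pathway, fell from 126 ± 6.41 to 83.5 ± 8.88 TPM. The others were Itga7, which rose by 0.62 on the log2 scale and lost its call without 0.2 mM replicate 1 (limma adjusted p = 0.0612) or 2 (0.114), and Igsf8, a partner of CD9, which fell by 0.55 and lost it without 0.2 mM replicate 3 (0.0652).

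The MiT/TFE factors drive lysosomal genes and are known to act on Gpnmb, and their list held 3 falls and 0 rises, and 4 genes missed the threshold, out of 7 tested genes, at a median log2 fold change of -0.42. Tfe3, the most abundant of the factors, fell from 8.39 ± 1.83 to 5.08 ± 0.913 TPM (limma adjusted p = 0.0139, and 0.0769 without 0.2 mM replicate 2). Rragc, a Rag GTPase that holds these factors at the lysosome, fell from 3.12 ± 0.245 to 1.57 ± 0.263 TPM. Fnip1, a partner of folliculin, fell by 0.39 but met the filter only through the libraries at 0.2 mM. Its call was lost without any of the 6 libraries at 0.8 mM (limma adjusted p up to 0.068). Without any 1 of the 3 libraries at 0.2 mM it missed the filter and was not tested. Flcn, at 3.49 ± 0.374 and 2.34 ± 0.505 TPM, did not pass (limma adjusted p = 0.0632). Over all 9 lists, 18 of 93 tested genes rose, 27 fell and 48 missed the threshold; 6 genes stand in more than 1 list.

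**Figure D4:**
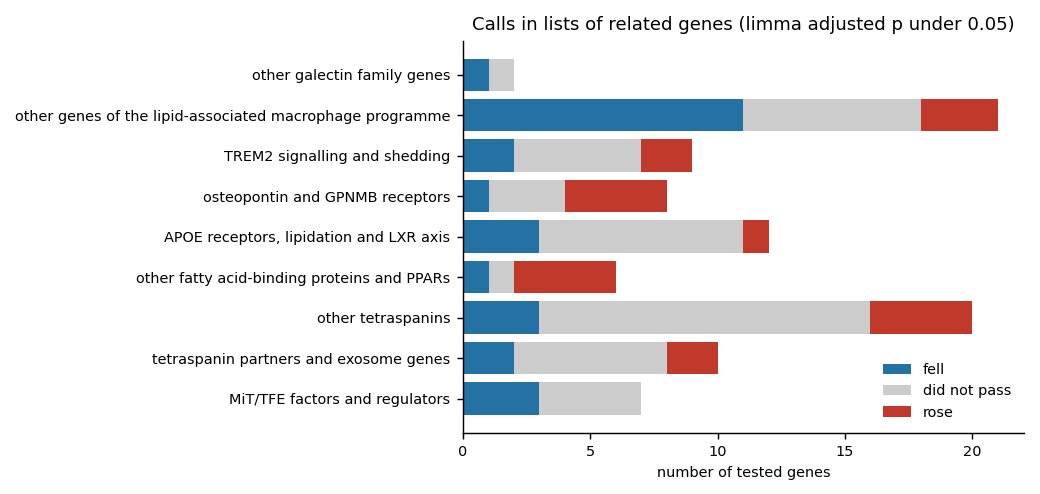
Number of tested genes (horizontal axis) in each of 9 lists that fell (blue), did not pass (light grey) or rose (red) from 0.2 to 0.8 mM glycine at a limma adjusted p under 0.05. The macrophage programme list has 11 that fell and 3 that rose, and the lists of osteopontin receptors and of fatty acid-binding proteins have 4 that rose and 1 that fell each.

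Markers of macrophages and monocytes did not lie in 1 direction. Of 20 tested, 4 rose, 5 fell and 11 missed the threshold, with a median log2 fold change of -0.15. Across all tested genes 16.7% rose and 9.81% fell, at a median of 0.06, so the count that rose lay near that share. With median-ratio scaling or quantile normalization 8 of the markers fell. The general markers Csf1r, the receptor for macrophage growth factor, at 5.73 ± 0.558 and 5.18 ± 0.600 TPM, Ptprc, the leukocyte antigen CD45, at 4.30 ± 2.38 and 3.61 ± 1.62 TPM, and Adgre1, a surface receptor of mature macrophages, at 2.63 ± 0.334 and 3.56 ± 0.386 TPM, did not pass. Fcer1g, an Fc receptor chain and the most abundant marker at 0.2 mM, averaged 949 ± 39.2 and 888 ± 36.3 TPM; its limma adjusted p was 0.161, but it passed as lower with median-ratio scaling (0.0174) and quantile normalization (0.000743). Itgam, the integrin CD11b, rose from 0.688 ± 0.0796 to 1.50 ± 0.196 TPM (limma adjusted p = 0.00718), but met the filter only through the libraries at 0.8 mM. Its exons also overlap the protein-coding gene Gm49368 on the same strand. The highest rise was that of Cd14, from 24.5 ± 1.04 to 59.8 ± 10.4 TPM, and beside Cd68 the largest fall was that of Ms4a7, from 63.4 ± 7.89 to 27.5 ± 4.42 TPM; both were named after their values were seen. Ccr2 of monocytes was listed at 0 throughout, and Cd163, Cx3cr1, Mrc1 and Fcgr1 stayed under the filter. The part of a change in macrophage RNA in the levels of Gpnmb, Lgals3, Trem2 and Apoe was not tested.

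Other cell types also differed between the groups. Their counts of calls stand beside 16.7% of all tested genes that rose and 9.81% that fell. The 12 fibroblast and fibro-adipogenic markers summed to between 2385 and 2792 TPM at 0.2 mM and between 2858 and 3463 TPM at 0.8 mM. Of these, 8 rose, none fell and 4 missed the threshold. Pi16, among the 8 and named for this after its values were seen, met the filter only through the libraries at 0.8 mM. Without Dcn, an exclusion made after its values were seen, the sum ran from 656 to 709 TPM and from 1415 to 1598 TPM. Dcn alone of the 12 had a lower mean at 0.8 mM. The most abundant of the 12 were Dcn, at 1878 ± 184 and 1689 ± 209 TPM, which did not pass, and Ly6a. Ly6a rose from 313 ± 19.6 to 901 ± 37.1 TPM. With the library number as a block in libraries 1 to 3, Dcn passed as lower (limma adjusted p = 0.0480). Granulocyte markers summed to between 457 and 554 TPM and between 952 and 2043 TPM, of which S100a8 held 399 ± 37.5 and 1296 ± 462 TPM and S100a9 104 ± 28.6 and 97.4 ± 19.5 TPM, while Ly6g was listed at 0 throughout; 3 of 4 tested rose and 0 fell. Endothelial markers summed to at most 31.2 TPM, led by Cldn5 and Emcn, with 4 of 4 tested that rose; Pecam1 and Cdh5, named for this after their values were seen, met the filter only through the libraries at 0.8 mM, and with a mean of at least 5 TPM 1 gene rose. Smooth muscle and pericyte markers summed to at most 16.6 TPM, led by Pdgfrb and Mcam, with 2 of 3 tested that rose, of which Cspg4 met the filter only through the libraries at 0.8 mM. The adipocyte sum, at most 34.7 TPM, was almost all Fabp4, and Plin1 was under the filter. The Schwann cell sum was at most 5.57 TPM. Markers of T, B and NK cells, with Cd79a and Cd79b the highest, summed to at most 1.33 TPM and none was tested. Of 8 myoblast markers, 7 rose and 0 fell. The part of these differences in the levels of the 10 genes was not tested.

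**Figure D5:**
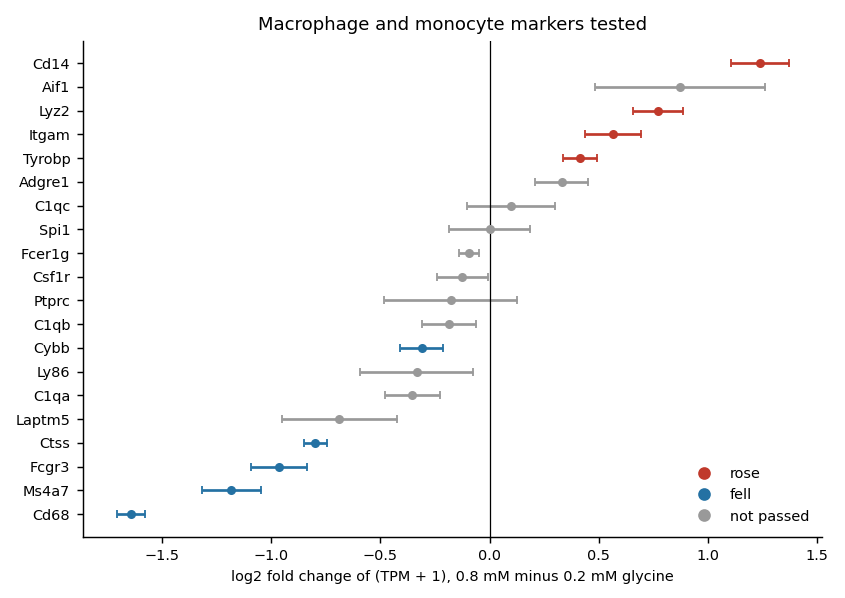
Log2 fold change of (TPM + 1), 0.8 minus 0.2 mM glycine, with SE bars for the 20 macrophage and monocyte markers tested, coloured by limma call (red rose, blue fell, grey not passed). Cd14, Lyz2, Itgam and Tyrobp rose while Cd68, Ms4a7, Fcgr3, Ctss and Cybb fell, and Ptprc, Csf1r and Adgre1 did not pass.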

How the data were processed

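RNA sequencing was done on 9 libraries of mouse primary myoblasts, and the authors deposited 1 table of TPM, transcript abundance per length for 53715 gene IDs. TPM has the same total in every library, so depth is unknown. The SEs rest on the spread between libraries and on their number. The part of depth in that spread was not tested. The submitters' processing notes name HISAT2 2.0.5, StringTie 1.3.3, DESeq2 and the mm10 build, and give no order; the use of strand is not given in the sources used here.

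Genes with at least 1 TPM in at least 3 libraries (10049) were tested two-sided on log2(TPM + 1) by limma 3.58.1 under R 4.3.3, with a mean-variance trend and no covariate. The threshold was 0.05 for the p adjusted by Benjamini-Hochberg over all tested genes. The script was tested on simulated data. The 10 genes and the 18 lists were chosen with earlier results of these data known, so the 10 genes are described without a test. In each list of related genes the 4 tested genes with the smallest p, and any count of 2 or fewer, are named; in each cell type list the 2 most abundant, and for macrophages 5 general markers; a few genes that the rule picks are not reported here. Positions come from GENCODE M21 on GRCm38, promoters from RefSeq on GRCm38.p6. Alternatives were other pseudocounts, filters, scalings and variance models, each library left out, and the library number as a block. The planned protein comparison was not run. Python 3.11.15 with matplotlib 3.10.9 drew the figures.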

Additional observations from a re-analysis of the deposited data

Results flagged for a closer look

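In each group of 6 libraries at 0.8 mM, a value was singled out where its gap to the nearest library exceeded 0.625 of the whole range; 82 such groups were examined, 4 were singled out, and chance gives about 1 in 20. None of the 10 genes was among them. Vav1 was 1.09 TPM in replicate 6, where the others ran from 1.57 to 1.78. Cd44 was 18.5 TPM in replicate 2, above 16.4 to 17.1 in the others. Ptprc was 6.70 TPM in replicate 2, above 1.99 to 3.59. The summed level of the Schwann cell markers was 5.57 TPM in replicate 3, against at most 2.67 in the others.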

How the results depend on the processing

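Over 20 alternatives, 4 of the 10 genes were higher and 6 lower at 0.8 mM in all but 1: without 0.2 mM replicate 3 the split was 5 and 5, because Cd63 changed sign. Fold changes of the other 9 kept their direction. With 1 library left out, genes that rose numbered 1304 to 1626 and genes that fell 720 to 968, and the list genes 16 to 19 and 23 to 27. Scaling moved the split of all called genes: 63.1% of them rose in TPM as deposited, 52.4% after median-ratio scaling (1413 rose, 1285 fell) and 49.8% after quantile normalization (1324 rose, 1335 fell). Of the 40 named list genes that passed, 12 lost the call in some alternative in which they were tested, and the cause was not tested. Alternatives in which a gene missed the filter were not counted.

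The labels number the libraries 1 to 3 in both groups. Deviations of same-numbered libraries had correlations of 0.0383, 0.00233 and 0.107, so they were taken to share only a number. For 0.2 mM replicates 1 and 3 the same-numbered library was the best match. For 0.2 mM replicate 2 it was 0.8 mM replicate 1 (0.0611). These values do not settle whether the libraries were paired. With the library number as a replicate block in libraries 1 to 3, 1157 genes rose and 625 fell; without it, 1318 and 748 did, with fewer samples than the full set in both cases. Among named genes, Syk and Itgam lost their calls with the block (limma adjusted p = 0.0533 and 0.0591) and in no other alternative in which they were tested. With the filter on a mean of at least 5 TPM they were not tested.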
